A study of Mus musculus with 2 samples.

Results

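This account covers 9 genes of double-stranded RNA (dsRNA) sensing and the interferon response: the sensors Ifih1 and Ddx58 (also written Rigi), the adaptor Mavs, the transcription factors Irf3 and Irf7, and the interferon-induced genes Cxcl10, Oas1a, Isg15 and Ifit1. They were chosen by name from the pathway, with earlier results of these data known. Of the 9, 8 are among the 18193 genes with a probe set of their own on the array, and Isg15 has only a probe set shared with another gene. All 15 probe sets that the platform annotation gives to these genes were read. Total RNA of mouse embryonic stem (ES) cells was measured on Affymetrix arrays, 1 for the control cells and 1 for cells whose title gives a Dnmt1 knockout (KO). No further genotype, strain, passage, clone or allele is stated in the sources used here, and the source name of both samples reads as a control, so only the title marks the KO array. The stated use of the series was as a reference for KO cells in further work on how ES cells differentiate.

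Cells recognise dsRNA, a product of viral replication and of transcribed repeats, through the helicases encoded by Ifih1 and Ddx58, which pass the signal to the mitochondrial adaptor Mavs. Mavs leads to activation of Irf3 and Irf7, which switch on the type I interferon genes, and secreted interferon then induces antiviral genes such as Oas1a, Isg15 and Ifit1 through its receptor, Jak kinases and Stat factors. Dnmt1 copies DNA methylation after replication, and methylation keeps many endogenous retroviral repeats silent. In human cancer cells, inhibitors of DNA methyltransferases are known to raise repeat transcripts and to start this pathway, whereas pluripotent stem cells are known for a weak interferon response. The comparison here asked whether the sensors and the interferon-induced genes were higher on the KO array.

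The promoter windows of 4 of the genes are shown because they hold the core of the interferon-stimulated response element, the site through which interferon-activated factors act, and because the signals of these genes differed: Cxcl10 and Oas1a had signals that could be compared between the arrays, and Ifih1 and Ifit1 did not. Each window runs from 250 bases before the RefSeq transcription start to 50 bases after it (GRCm38.p6). The core was searched on both strands as GAAA, any 2 bases, then GAAA, and its matches are in capitals. Cores in the same window may overlap.
Cxcl10 (chr5:92348840-92349139, minus strand): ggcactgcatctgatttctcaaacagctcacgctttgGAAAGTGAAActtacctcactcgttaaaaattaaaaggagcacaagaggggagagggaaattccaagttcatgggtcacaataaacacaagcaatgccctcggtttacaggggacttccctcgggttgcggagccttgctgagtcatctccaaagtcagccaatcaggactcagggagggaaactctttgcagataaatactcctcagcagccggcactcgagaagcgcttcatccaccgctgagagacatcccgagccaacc
Oas1a (chr5:120907476-120907775, minus strand): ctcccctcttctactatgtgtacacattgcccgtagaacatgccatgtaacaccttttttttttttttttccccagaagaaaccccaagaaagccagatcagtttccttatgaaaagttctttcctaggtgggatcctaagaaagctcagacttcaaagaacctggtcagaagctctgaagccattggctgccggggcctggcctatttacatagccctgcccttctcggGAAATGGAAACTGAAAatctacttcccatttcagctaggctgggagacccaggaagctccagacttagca
Ifih1 (chr2:62646206-62646505, minus strand): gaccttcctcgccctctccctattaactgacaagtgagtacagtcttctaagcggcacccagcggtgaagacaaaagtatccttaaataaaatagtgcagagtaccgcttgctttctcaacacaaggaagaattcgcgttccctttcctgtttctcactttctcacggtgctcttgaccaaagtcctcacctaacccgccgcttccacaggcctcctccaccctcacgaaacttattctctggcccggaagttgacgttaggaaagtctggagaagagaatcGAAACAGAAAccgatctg
Ifit1 (chr19:34640639-34640938, plus strand): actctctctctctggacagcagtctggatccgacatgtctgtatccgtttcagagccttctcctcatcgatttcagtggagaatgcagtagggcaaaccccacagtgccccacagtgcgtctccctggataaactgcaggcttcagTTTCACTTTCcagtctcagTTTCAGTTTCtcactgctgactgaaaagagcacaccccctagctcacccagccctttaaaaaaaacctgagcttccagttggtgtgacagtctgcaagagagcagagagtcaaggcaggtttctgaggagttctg
The Cxcl10 core starts 213 bases before the transcription start. In Oas1a, 2 overlapping cores start 20 and 14 bases before it, and in Ifit1, 2 cores on the opposite strand start 104 and 85 bases before it. The Ifih1 core, GAAACAGAAA, lies after the start, from base 33. Isg15 has 3 overlapping cores from 78 bases before its start, and Ddx58 has 1 core on the opposite strand, TTTCGATTTC, from base 3 after its start. No core was found in the windows of Mavs, Irf3 and Irf7. The core was therefore present in the windows of 6 of the 9 genes, against 3.44% of the 32851 promoter windows of the same length. A match is a description of the letters and shows no binding.

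CpG dinucleotides, the sites that Dnmt1 methylates, were counted in the same windows. Oas1a had 3, Ifit1 4, Isg15 6, Irf7 7, Cxcl10 10, Ifih1 14, Ddx58 15, Irf3 18 and Mavs 19. All windows had a median of 7 (quartiles 3 and 20), so the windows of the 9 genes spanned the common range, with the interferon-induced genes on the CpG-poor side of the sensors and of Mavs. The other motifs searched were rarer among them. The letters of a TATA box (TATAAA) were found in Ddx58, 153 bases before the start, and in Irf7, 29 bases before it (13.6% of all windows). A gamma-activated site (TTCNNNGAA) was found in Oas1a (8.3% of all windows). The kappa-B pattern searched (GGG, any 2 bases, then TTTCC) was found in none of the 9 (1.63% of all windows). Looser spellings were not counted, such as gggaaattcc and gggacttccc in the Cxcl10 window, so a kappa-B site of another spelling may be present. Methylation itself was not measured in this series.

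Signals are MAS5 intensities on a linear scale, as deposited. A signal under the array's own median over all probe sets, 60.9 for the control and 74.2 for the KO, was raised to that median, here called the floor, and no ratio was taken where both arrays were under it. The median gene was 1.34-fold brighter on the KO array (0.43 on the log2 scale), while 18 Affymetrix spike-in probe sets above the floor, some of them for the same transcripts, had a median log2 ratio of -0.11 (range -0.54 to 0.05). Ratios below are relative to the median gene unless they are called as deposited. With 1 array per group no test between the cultures exists, and a gene was counted when its ratio was at least 2-fold. The only measure of error was technical: probe sets of the same gene differed in their log2 ratio with a pooled SD of 0.24 (4704 genes). It comes from the same 2 arrays and holds no variation between arrays or cultures. In bulk RNA, fewer cells that express a gene and less of its RNA per cell cannot be told apart. Dnmt1, the targeted gene, gave 1949.1 in the control and 262.1 in the KO, which is 9.99-fold lower. Its dimmer probe sets were lower by at least 15.8-fold and at least 6.3-fold. All 12 ES cell markers listed were above the floor on both arrays, with 3 at least 2-fold higher (Klf4, Nanog and Esrrb), Utf1 at -0.62 and a list median of -0.06.

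Of the 9 genes, 5 could be compared, and none of these was at least 2-fold higher or lower on the KO array relative to the median gene. Cxcl10 (1.91-fold) and Oas1a (1.61-fold) had the highest ratios, the sensor Ddx58 (1.20-fold) and the adaptor Mavs (1.22-fold) lay slightly above the median gene, and Irf3 lay at it. Of the 15 probe sets, 9 were above the floor on both arrays and 6 on neither. At gene level, 5 genes had a ratio (Ddx58, Mavs, Irf3, Cxcl10 and Oas1a), 3 were under the floor on both arrays (Ifih1, Irf7 and Ifit1), and Isg15 had no probe set of its own. The 5 measured genes are those with enough signal to compare, and are not all of the group. Among all 12226 measured genes, 133 (1.09%) were higher by 2-fold or more and 65 (0.532%) lower, so 0 of 5 in either direction lay near the background. As deposited, Cxcl10 and Oas1a were at least 2-fold higher (2 of 5) and none was lower, against 4.92% and 0.0982% of all genes. The 5 ratios ran from -0.04 to 0.93 on the log2 scale with a median of 0.28, beside a median of -0.0049 over all measured genes, and 4 of the 5 lay above the median gene.

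**Figure D1:**
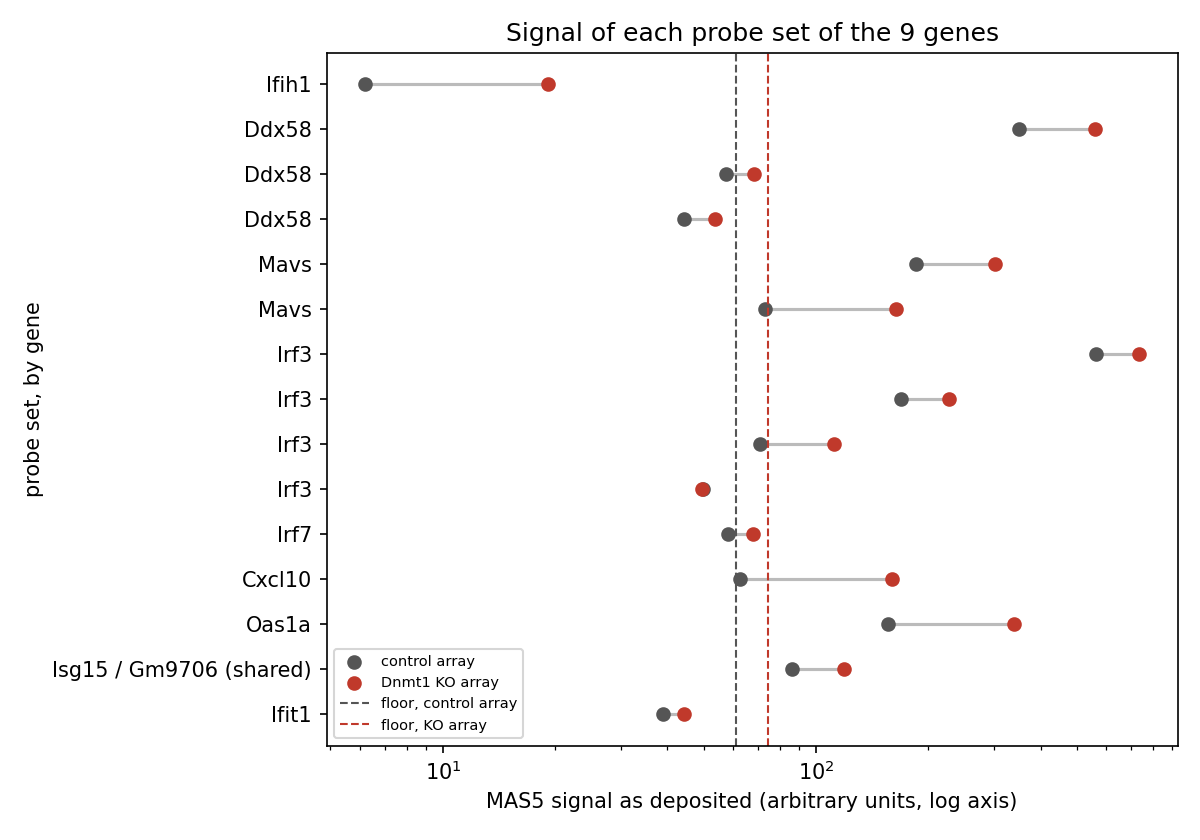
MAS5 signal as deposited (log axis) of each of the 15 probe sets on the control and the KO array, 1 pair of points per probe set, with the floor of each array as a dashed line. The 6 probe sets with each point left of the line of its own array include the only ones of Ifih1, Irf7 and Ifit1, and Cxcl10 starts from 62.5, beside the control floor of 60.9.

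The sensors were read at very different quality. Ifih1, the helicase that binds long dsRNA, had signals of 6.2 (control) and 19.1 (KO), both far under the floor, so it had no ratio. Ddx58, the helicase that recognises short dsRNA with a triphosphate end, had 3 probe sets. The brightest went from 349.1 to 560.6, which is 1.61-fold higher as deposited and 1.20-fold higher relative to the median gene (log2 ratio 0.26). The other probe sets of Ddx58 were under the floor on both arrays, at 44.4 and 53.7 for one and 57.3 and 68.3 for the next. The Ddx58 ratio was thus close to the technical SD of 0.24, and 18.9% of all measured genes had a ratio as high or higher.

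Mavs, the adaptor on the mitochondrial membrane that both sensors use, was brighter on the KO array by both of its probe sets. The brighter probe set went from 185.1 to 302.6 (log2 ratio 0.28, 1.22-fold), and the dimmer one from 72.8 to 163.6 (0.74, 1.67-fold). Their mean was 0.51 ± 0.32 (SD, 2 probe sets), so the size of the difference depended on the probe set. The dimmer probe set started close to the control floor, and its identifier carries the maker's mark for probes that can match other transcripts. By the brighter probe set, 16.9% of all measured genes had a ratio as high or higher.

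Irf3, the factor that is present before infection and is activated by phosphorylation, stayed close to the median gene. Its brightest probe set went from 562.1 to 733.2, a log2 ratio of -0.04, with 54.9% of all genes as high or higher, and it too carries the maker's mark for probes that can match other transcripts. Other probe sets went from 169.5 to 227.9 (0.0018) and from 71.0 to 111.7 (0.23), and the mean over these 3 was 0.06 ± 0.15 (SD, 3 probe sets). A further one, at 49.8 and 49.5, was under the floor on both arrays and was the only 1 of the 15 dimmer on the KO array as deposited. Irf7, the factor that interferon itself induces and that amplifies the response, was under the floor on both arrays, at 58.2 and 68.0.

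Cxcl10, a chemokine that attracts T cells and is induced by interferons and by nuclear factor kappa-B, had the highest ratio of the group. Its single probe set went from 62.5 to 159.9, which is 2.56-fold higher as deposited and 1.91-fold higher relative to the median gene (log2 ratio 0.93). The control value was just above the floor of 60.9, so the ratio is close to a bound and rests on 1 probe set. Cxcl10 reached 2-fold by other scalings, at 2.03-fold with quantile normalization and 2.02-fold with lowess, and it had no ratio with the floor at the 75th percentile. Of all measured genes, 175 (1.43%) had a ratio as high or higher. Among the 3342 genes whose mean signal was, like that of Cxcl10, under 2 floors, 0.898% reached 2-fold and 5.18% reached 1.5-fold in the same direction.

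Oas1a, an enzyme that answers dsRNA by making oligoadenylates and so switches on ribonuclease L, went from 156.2 to 338.7. This is 2.17-fold higher as deposited and 1.61-fold higher relative to the median gene (log2 ratio 0.69), and rests on a single probe set. The ratio is larger than the technical SD of 0.24, which leaves out differences between arrays or cultures. A ratio as high or higher was found for 398 genes (3.26%). Among the 2730 genes whose mean signal was, like that of Oas1a, 2 to 4 floors, 2.01% reached 2-fold and 7.51% reached 1.5-fold in the same direction. With the floor raised to the 75th percentile, at which the control signal itself was under the floor, the bound for Oas1a was at least 1.24-fold. Oas1a belongs to a family of close paralogs, so related copies could contribute to its signal. At a threshold of 1.5-fold, Cxcl10 and Oas1a were the 2 of 5 genes counted as higher and none was lower, against 4.74% and 4.25% of all genes. As deposited, 4 of the 5 reached 1.5-fold, all but Irf3, and none was lower, against 28% and 0.483% of all genes.

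The remaining interferon-induced genes gave no difference that could be read. Ifit1, which binds viral RNA that lacks the host cap methylation, had signals of 39.0 and 44.2, both under the floor. The probe set that holds Isg15, a ubiquitin-like protein that is joined to other proteins, is annotated to Isg15 and Gm9706 together, so no value is assigned to Isg15. That shared probe set went from 86.5 to 119.2, a log2 ratio of 0.04 relative to the median gene. The window of Isg15 holds 3 response element cores and that of Ifit1 holds 2, so windows with cores belonged both to genes with a ratio and to genes under the floor.

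**Figure D2:**
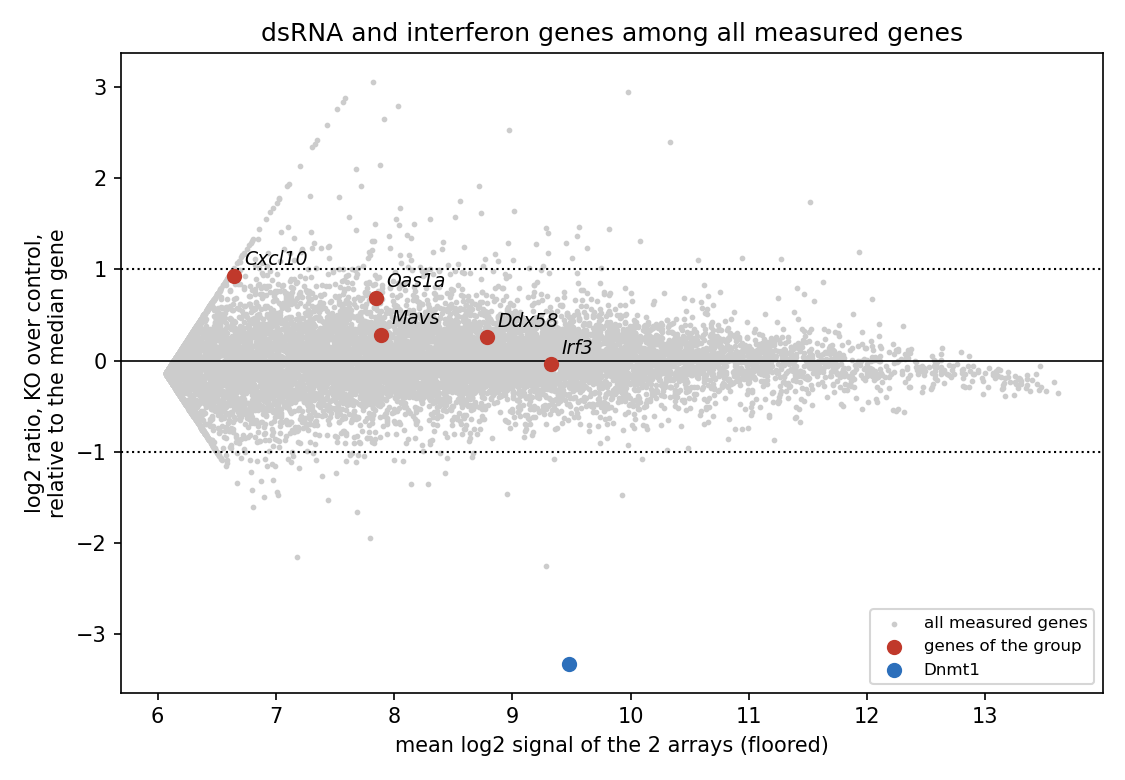
Log2 ratio of KO over control relative to the median gene (vertical axis) against the mean log2 signal (horizontal axis) for 12226 measured genes in grey, with the 5 measured genes of the group and Dnmt1 marked and dotted lines at 2-fold. Cxcl10, at 0.93, lies on the left edge, where control signals are near the floor, and Irf3, at -0.04, lies in the middle of the cloud.

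The rest of the pathway was read from 8 lists by role, drawn up with earlier results of these data known. They held 171 genes, the 9 included, of which 151 had a probe set of their own, 109 were measured and 42 were under the floor on both arrays. Of the 109, 2 were at least 2-fold higher (Ifi35 and Parp12) and none was 2-fold lower, beside 1.09% and 0.532% of all genes. The median was -0.0016, with 54 genes above the median gene and 55 below it. As deposited, 11 were higher and none was lower (4.92% and 0.0982% of all genes), and the median was 0.42, the same as for all genes.

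Among 13 dsRNA sensors and effectors, 9 were measured, none reached 2-fold, and the median was 0.03 (0.46 as deposited). Eif2ak2, the kinase that stops translation when it binds dsRNA, had a log2 ratio of -0.23 (124.2 to 142.2). The RNA helicases Dhx9 and Dhx15 had 0.13 (2077.9 to 3044.9) and -0.22 (3201.5 to 3681.4). Chosen after their values were seen, Tlr3, the endosomal dsRNA receptor, Zbp1 and Ddx60 were under the floor on both arrays, and Dhx58, the third helicase of the Ddx58 family, had 0.09 or above (53.2 to 87.1).

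Adaptors and kinases lay on both sides of the median gene. Of 15 measured, 6 lay above the median gene and 9 below it, with a median of -0.11 relative to it and 0.32 as deposited, and none reached 2-fold with the floor at each array's median. Tradd, an adaptor of death receptors that also joins the Mavs complex, went from 212.9 to 164.7 (-0.80), and its 2 measured probe sets averaged -0.89 ± 0.13 (SD). Sting1, the adaptor for cytosolic DNA, went from 91.5 to 24.9 and had -0.73 or below, since its KO signal was under the floor. With the floor at the 25th percentile it had -2.28, and with no floor -2.22, both past 2-fold lower. Its other probe set was under the floor on both arrays. Rnf135, a ubiquitin ligase that supports Ddx58, had 0.55 or above (50.0 to 120.1), and Fadd, the adaptor of the death receptors, had -0.49 (217.7 to 207.5).

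Transcription factors of the response were mostly just under the median gene. Of 12 measured, 9 lay below it, the median was -0.12 (0.31 as deposited), and none reached 2-fold. Irf8, a factor of myeloid cells, went from 126.3 to 96.2 (-0.82), but its probe sets averaged -0.51 ± 0.44 (SD, 2 probe sets). Irf5 had -0.44 (218.3 to 215.4), the coactivator Ep300 -0.25 (793.2 to 897.5), and Irf4 -0.14 or below (61.0 to 48.7). Tradd and Irf8 lie on chromosome 8. All 7 measured pathway genes on that chromosome lay below the median gene (median -0.41), as did 543 of the 601 chromosome 8 genes that both arrays measured above the floor (median -0.37).

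The interferons themselves were hardly detected. Of 10 interferon genes with a probe set of their own, 7 were under the floor on both arrays. Ifnb1, the first type I interferon made after Irf3 activation, had signals of 61.0 and 75.5, at the edge of the floor on both arrays (log2 ratio -0.12). Ifna1 (70.9 to 95.1) and Ifnz (98.2 to 132.5) had ratios of -0.0016 and 0.0069. The identifier of the Ifna1 probe set carries the maker's mark for probes that can match other transcripts. None of the 3 measured reached 2-fold, and these signals are too near the floor to tell a low level from none. Receptors and Jak kinases were measured for 8 of 9 genes, with a median of 0.06 (0.48 as deposited) and none at 2-fold. Ifnar1, a chain of the type I receptor, had 0.47 (192.7 to 358.2), Jak1 0.30 (520.1 to 861.7, or 0.03 ± 0.24, SD, as the mean of its 3 measured probe sets), Ifngr1 -0.35 and Ifngr2 -0.27.

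Of the 8 lists, that of the interferon-induced genes held the largest single ratios. Of 62 listed, 56 had a probe set of their own, 39 were measured and 17 were under the floor on both arrays. Of the 39, 2 were at least 2-fold higher (Ifi35 and Parp12) and none was 2-fold lower, against 1.09% and 0.532% of all genes. As deposited, 8 of the 39 were higher and none was lower, against 4.92% and 0.0982% of all genes. Ifi35, an interferon-induced leucine zipper protein, went from 94.0 to 474.8 (3.76-fold). Its other probe sets differed widely in size, at least 2.43-fold for one (18.9 to 198.4) and 1.37-fold for the next (88.5 to 162.3). Of these Ifi35 probe sets, all but the one at 2.43-fold carry the maker's marks for probes that can match other transcripts. Parp12, an ADP-ribosyltransferase with antiviral activity, went from 135.8 to 511.2 (2.80-fold) on 1 probe set. Irgm1, a GTPase of the defence against intracellular microbes, went from 161.9 to 398.8 (1.83-fold), and Ifitm3, a membrane protein that blocks virus entry and is known to be expressed in stem cells, from 2017.0 to 4936.4 (1.82-fold).

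The list median of the interferon-induced genes was -0.03 (0.40 as deposited), and 19 lay above the median gene and 20 below it, with genes under the floor on 1 array taken at their bound. At 1.5-fold, 8 of the 39 were higher (20.5%) and 1 was lower, against 4.74% and 4.25% of all genes. Beyond the 4 above and Oas1a, these were Lgals9, Phf11d and Parp9, named after their values were seen. They ran from 0.67 to 1.91 on the log2 scale. Of the rest of the list, Ifitm1 (0.38) was the highest of those that needed no bound, while Oas2 (29.4 to 107.1), under the floor on the control array, has only a bound of 0.39 or above, so its place beside these genes is not settled. Of the 7 with a promoter window in the reference table, 4 held the response element core, as did 9 of 26 measured genes under 1.5-fold and 5 of 11 under the floor. Ifi35 and Parp12 held none in their windows.

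Close relatives of the group, chosen after their values were seen, did not share one direction. In the oligoadenylate synthetase family, Oas2 had a log2 ratio of 0.39 or above (29.4 to 107.1), Oas3 0.33 (95.2 to 161.1) and Oasl1 -0.19 (119.7 to 140.6), while Oas1b, Oas1c and Oasl2 were under the floor on both arrays. In the Ifit family, Ifit2 had -0.42 or below (74.0 to 71.2) and Ifit3, like Ifit1, was under the floor on both. The genes of Isg15 conjugation named next, which are not all of those that act in it, had no ratio above the median gene. The activating enzyme Uba7 had -0.79 (143.0 to 111.4), the ligase Herc6 -0.41 (232.6 to 234.4), and the conjugating enzyme Ube2l6 and the protease Usp18, which removes Isg15, were under the floor on both. Mx1, Mx2 and Isg20, strongly interferon-induced in many cell types, were also under the floor on both, and Rsad2 had 0.06 (86.7 to 121.3).

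Chemokines and cytokines linked to interferon were mostly not measured. Of 11, 8 were under the floor on both arrays, among them Cxcl9 and Cxcl11, which share a receptor with Cxcl10, and Ccl5. By their brightest probe sets, Cxcl10 was the only 1 of the 3 measured that reached 1.5-fold, and none reached 2-fold (median 0.08, or 0.50 as deposited). Cxcl16 had -0.46 (114.0 to 111.0). Cxcl1 had 0.08 by its brightest probe set (152.3 to 216.1) and -1.13 by another (130.6 to 80.4), so its direction depended on the probe set. The identifiers of both carry the maker's marks for probes that can match other transcripts. A further Cxcl1 probe set, without such a mark, was under the floor on both arrays (31.8 and 31.7). Genes that restrain nucleic acid sensing, such as nucleases and inhibitors of the adaptors, had a median of 0.14 over 20 measured genes (0.56 as deposited), with none at 2-fold. The autophagy genes Atg12 (241.0 to 524.7) and Atg5 (380.8 to 827.3), which damp Ddx58 and Mavs signalling, had 0.70 and 0.69, with means of 0.35 ± 0.48 (SD, 2 probe sets) and 0.39 ± 0.28 (SD, 3 probe sets). Rnaseh2a, a ribonuclease H subunit on chromosome 8, had -0.54 (973.0 to 899.6), and the nuclease Samhd1 -0.37 (867.1 to 903.0, or -0.05 ± 0.25, SD, as the mean of its 4 measured probe sets). Adar, which edits dsRNA and hides it from Ifih1, had 0.21 (407.5 to 633.8) and was chosen after its value was seen.

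**Figure D3:**
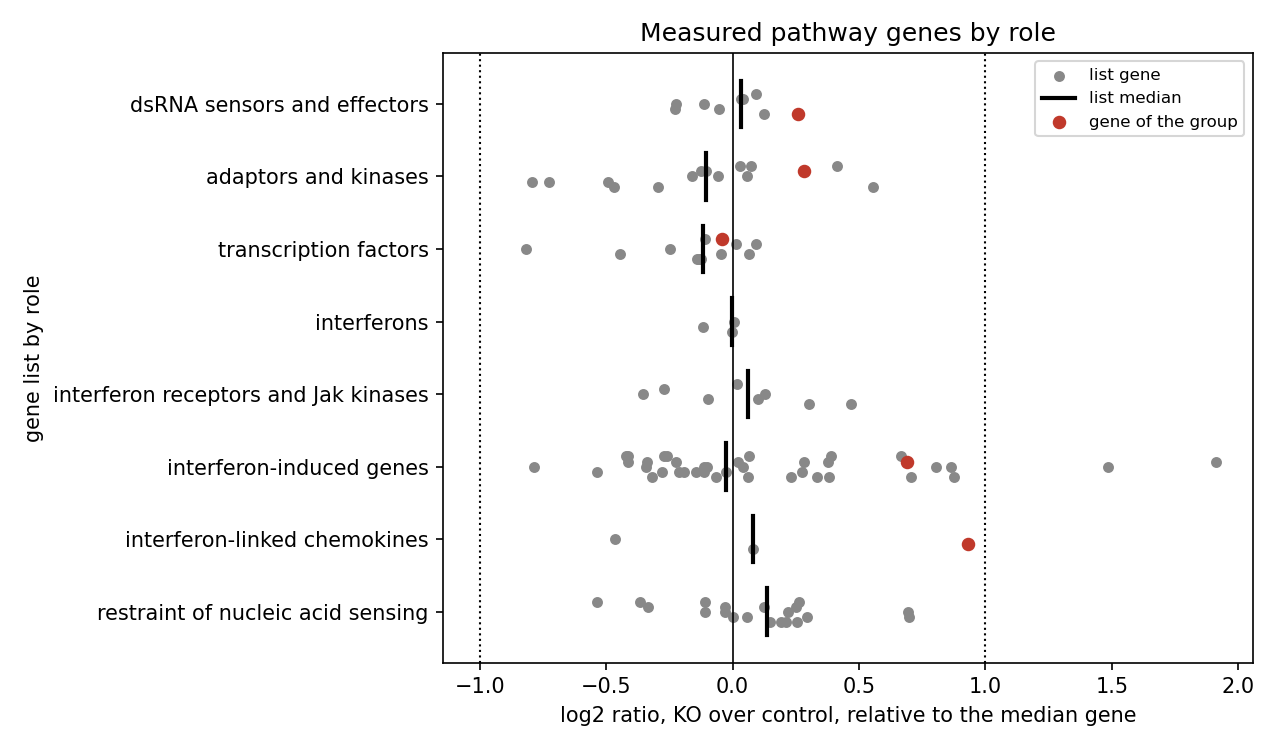
Log2 ratio of KO over control relative to the median gene for the measured genes of 8 lists by role, 1 point per gene, with genes of the group in red, list medians as black bars and dotted lines at 2-fold. Medians lie between -0.12 and 0.14, and the points beyond 1 on the right are Ifi35 and Parp12, both in the interferon-induced list.

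Repeats that could give dsRNA were looked for through annotated retroviral genes. Of 8 retroviral genes listed, 2 had a probe set of their own. Erv3 was under the floor on both arrays and Fv1, a restriction factor of retroviral origin, had -0.04 (87.6 to 114.3). Probe sets without an annotated gene were not searched for repeats, so the transcripts that the sensors might bind were not read here. Markers of immune cells, which carry a strong interferon response, were also read. Of 14 haematopoietic markers, 6 were under the floor on both arrays, including Ptprc, the pan-leukocyte marker, at 27.4 and 25.1. The summed signal of the 14 as deposited, signals under the floor included, was 1198.9 (control) and 1712.4 (KO), and none was at 0. On that scale the median gene was 1.34-fold brighter on the KO array. Relative to the median gene, the 8 measured markers had a median log2 ratio of -0.14, with 3 above the median gene and 5 below it. Cd68 had 0.78 (100.8 to 231.7), Laptm5 0.58 (208.5 to 418.9), Spi1 -0.50 and Cd14 -0.32 or below. Of 15 fibroblast markers, which feeder cells would carry, 8 were under the floor on both arrays, and the summed signal was 4370.7 and 6123.9. Vim had 0.54, Col5a1 0.37, Col1a2 -0.28 and Col1a1 -0.66. The part of either cell type in the ratios above was not tested.

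Of the 5 measured genes, Irf3 alone changed its direction with the processing. Cxcl10, Oas1a, Mavs and Ddx58 stayed above 0 in each setting that gave them a ratio, with log2 ratios from 0.92 to 1.36, 0.31 to 1.12, 0.15 to 0.71 and 0.03 to 0.68. Irf3 ran from -0.07 to 0.38 and was below 0 in every setting tried except the ratio as deposited and the mean over probe sets (0.05). Among the lists, the medians of the sensors (-0.09 to 0.46), the interferons (-0.455 to 0.42), the interferon-induced genes (-0.03 to 0.40) and the chemokines (-0.47 to 0.50) changed sign between settings, those of the adaptors and of the transcription factors were below 0 except as deposited, and those of the receptors and of the restraining genes stayed above 0.

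**Figure D4:**
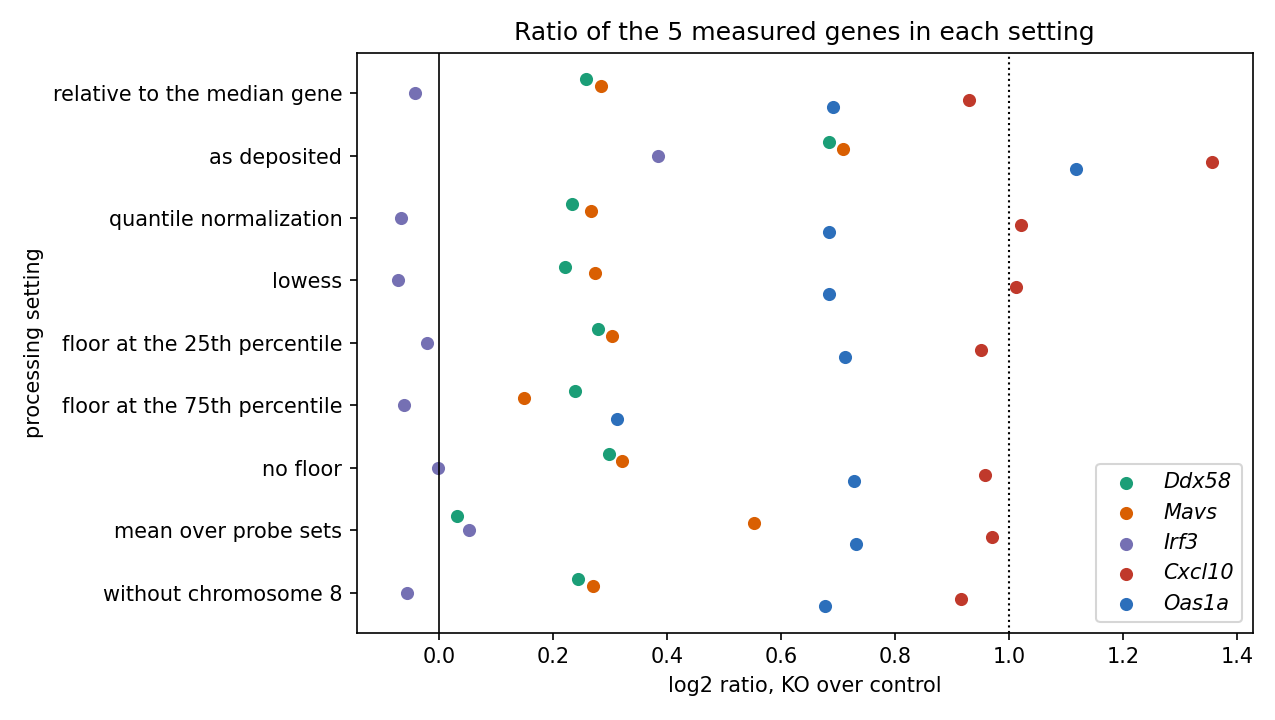
Log2 ratio of KO over control for the 5 measured genes (horizontal axis) in each processing setting (vertical axis), with a dotted line at 2-fold. Cxcl10 is right of the line as deposited (1.36), with quantile normalization (1.02) and with lowess (1.01), and Oas1a is right of it as deposited only (1.12).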

How the data were processed

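Biotin-labelled cRNA was made in 1 amplification cycle, per the labels' protocols, and the sample titles gave the groups. The deposited intensity of a probe set is a linear MAS5 signal, per the submitters' processing notes. Its target intensity and scaling are not stated here, detection calls were not used, and precision is limited by having 1 array per group. Of 45101 probe sets, 64 Affymetrix controls were left out, 34945 had 1 gene and 932 had several, which named no gene. The rest had no annotated gene and entered only the floors and the quantile normalization. Symbols were updated by gene identifier to the RefSeq table of GRCm38.p6, the source of the promoter windows also.

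Each gene was read from its brightest probe set, by the mean floored log2 signal. A gene above the floor on 1 array has a bound. Ratios were centred on the median of 10995 genes above the floor on both arrays; 1231 were above it on 1 array and 5967 on neither. No p-value was computed. Counts used 2-fold, with 1.5-fold beside it. Alternatives were the scaling, the floor, the probe set summary, the threshold and leaving out chromosome 8. The procedure was tested on simulated data with differences larger than 2-fold, placed in bright genes only. That test did not cover smaller differences or differences in genes near the floor, where much of the group lies. Besides the 9 genes and Dnmt1, up to 4 genes per list with the largest ratio in size were named; others are marked. The genes, lists and settings were chosen with earlier results of these data known. Python 3.11.15, pandas 2.3.3, numpy 2.4.6 and statsmodels 0.14.6 were used. Protein sequences were not used here.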

Additional observations from a re-analysis of the deposited data

How the results depend on the processing

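Relative to the median gene, 0 of the 5 measured genes of the group were at least 2-fold higher. As deposited it was 2 of 5, against 602 of 12226 genes. Quantile normalization and lowess each gave 1 of 5 (Cxcl10), against 153 and 144 of 12226 genes. Without a floor it was 1 of 8 (Ifih1, from signals under the floor), against 846 of 18193 genes. At 1.5-fold it was 2 of 5, against 579 of 12226 genes. In a setting chosen after seeing the data, 1.5-fold as deposited, it was 4 of 5, against 3426 of 12226 genes. None was lower in any of these. Their median moved from 0.28 to 0.709 as deposited and 0.553 with the mean over probe sets. Of the 109 measured genes of the pathway lists, 11 were higher as deposited, and the median was 0.424. The 25th percentile floor gave 4 higher and 4 lower of 134 measured, Sting1 among the latter. The 75th percentile floor gave 0 higher of 58, and no floor gave 8 higher and 11 lower of 151. Among the 109, 1.5-fold gave 11 and 4, 3-fold 1 higher, and 1.5-fold as deposited 31 higher. Over all 12226 measured genes, 602 were higher and 12 lower as deposited. The 25th percentile floor gave 361 and 388 of 15813, the 75th 48 and 12 of 7145, and no floor 846 and 1049 of 18193. Among the 12226, the mean over probe sets gave 25 lower, 1.5-fold 579 and 519, and 3-fold 32 and 6. There, 1.5-fold as deposited gave 3426 higher. Fewer or more genes are measured as the floor moves. Ratios as deposited leave out the centring by 0.43 on the log2 scale, and another threshold moves the cut and no ratio. The cause of the other changes was not tested. Taking the shared probe set as Isg15, another added setting, changed no count. No paired analysis was possible because each group has 1 array. Signals near the floor limit Cxcl10, Irf7 and the interferons.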

Other observations

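Across the array, 524 genes with a promoter window and a probe set of their own held the response element core in that window, and 334 of them (63.7%) were above the floor on at least 1 array. Of these, 2 (0.599%) were higher by 2-fold or more and 3 (0.898%) lower, with a median log2 ratio of -0.02. Among 9559 measured genes without the core, 109 were higher (1.14%) and 46 lower (0.481%), with a median of 0.0004. Genes with the kappa-B pattern searched (177 measured, 3 higher, median 0.04) or a gamma-activated site (787 measured, 10 higher, median -0.0049) are given as values with no test.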
